A study of Mus musculus with 18 samples.

Results

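MHC class II molecules are the cell-surface proteins that show peptides from taken-up material to helper T cells, and 10 mouse genes of this system were followed here among the 23951 genes of the expression table. They were taken by name: the chain genes H2-Aa, H2-Ab1 and H2-Eb1, the invariant chain Cd74, the transactivator Ciita, the peptide exchange genes H2-DMa, H2-DMb1 and H2-DMb2, and the exchange inhibitor genes H2-Oa and H2-Ob. The receptor gene Csf1r and the pan-leukocyte gene Ptprc (CD45) were set beside them as markers of macrophages that could have come along in the sort.

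The 18 libraries were made from polyA RNA of cells sorted from fresh mouse pancreas or from pancreatic ductal adenocarcinoma. Normal pancreatic fibroblasts (NPF, 3 libraries) came from Elas-tTA/tetO-Cre; Rosa26+/EYFP mice. Cancer-associated fibroblasts (WT_CAF, 5 libraries) and tumor cells (WT_tumor, 4 libraries) came from mice that also carry Trp53lox/lox and are wild type for Saa3. The same 2 cell types from mice that are in addition Saa3-/- make up KO_CAF (3 libraries) and KO_tumor (3 libraries). All groups thus share the elastase-driven Cre system and the EYFP reporter. The elastase promoter directs Cre to acinar cells of the pancreas, and Saa3-/- is written as a genotype of the mice, not of 1 cell type. Neither the age of the mice nor the sort markers nor the number of mice behind each library is stated in these sources. The series names its replicates biological, but no label ties a library to an animal, so the p-values measure the spread between these libraries.

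In antigen-presenting cells such as dendritic cells, B cells and macrophages, the alpha and beta chains are built together with the invariant chain, which blocks the groove until the endosome. There H2-DM exchanges the invariant chain remnant for peptide, and H2-O restrains H2-DM. Ciita switches the whole set on, constitutively in professional presenting cells and after interferon gamma in many others, including fibroblasts and epithelial cells. It binds no DNA itself but sits on factors at a conserved promoter module, whose X box and Y box lie a short way upstream of the class II genes.

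The promoters were looked at to show where that module lies in the genes whose levels are compared below. RefSeq promoter windows (GRCm38.p6, 250 bases before to 50 after the annotated start) matched 7 of the 10 genes. H2-Ab1 and Ciita had no window, and Cd74 was not looked up. CTGATTGG, the core of the Y box, and AACNGATG, the end of the X box, were searched on both strands; the letters of the pair do not overlap in any window shown. The stretches below run from base -130 to base -31 relative to the start, 5′ to 3′ on the gene's strand, with matches in capitals.
H2-Aa: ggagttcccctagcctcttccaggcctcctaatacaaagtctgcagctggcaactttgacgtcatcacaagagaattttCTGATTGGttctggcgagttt
H2-Eb1: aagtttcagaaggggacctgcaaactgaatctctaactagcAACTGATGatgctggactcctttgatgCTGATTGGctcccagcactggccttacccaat
H2-DMb1: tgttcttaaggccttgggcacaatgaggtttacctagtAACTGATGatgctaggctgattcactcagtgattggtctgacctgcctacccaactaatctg
H2-DMb2: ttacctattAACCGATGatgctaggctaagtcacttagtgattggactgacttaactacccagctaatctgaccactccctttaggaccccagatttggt
H2-Oa: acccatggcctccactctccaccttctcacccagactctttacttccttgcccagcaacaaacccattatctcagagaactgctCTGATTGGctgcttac

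All 5 stretches lie on chromosome 17, in the class II region, each just before a transcript start annotated by RefSeq; that of H2-DMb2 lies inside the annotated span of the gene, chr17:34143229-34151553. They are chr17:34287854-34287953 for H2-Aa on the minus strand and, on the plus strand, chr17:34305737-34305836 for H2-Eb1, chr17:34153061-34153160 for H2-DMb1, chr17:34145119-34145218 for H2-DMb2 and chr17:34092249-34092348 for H2-Oa. The Y box core began at base -51 in H2-Aa, -62 in H2-Eb1 and -46 in H2-Oa. The X box end began at base -89 in H2-Eb1, -92 in H2-DMb1 and -121 in H2-DMb2. H2-Eb1 held both, which 0.0944% of all 32851 promoter windows did. The Y box core alone was found in 4.10% and the X box end in 2.32% of those windows. Neither string was found in the windows of H2-DMa and H2-Ob, which says only that these exact letters are not there.

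Before the members are compared, some libraries have to be named, WT_CAF 1 first. The library labelled WT_CAF 1 had a summed level of 569 FPKM (fragments per kilobase of transcript, scaled to the mapped fragments of the library) over 8 fibroblast markers, against 8768 to 18086 FPKM in the other WT_CAF libraries, and 626 FPKM over 7 epithelial markers, against 26.7 to 307 FPKM. Its level of Saa3, the deleted gene of the study, was 7.24 FPKM, while WT_CAF 2 to 5 had 892 to 4278 FPKM, KO_CAF had 0.434 to 1.85 FPKM and KO_tumor had 0 to 0.346 FPKM. It was at 3.13 to 331 FPKM in NPF and 2.75 to 106 FPKM in WT_tumor, so 7.24 FPKM lay inside the range of both. The epithelial sum otherwise kept the labelled cell types apart. It was 2791 to 6538 FPKM in the tumor cell groups and at most 307 FPKM in the remaining fibroblast libraries. In WT_tumor 4 it came mostly from keratins. Epcam, Cldn4 and Cldn7 were at 2.60, 1.66 and 5.95 FPKM there, below the 12.1, 9.49 and 10.6 FPKM of WT_CAF 5. WT_tumor 3 had a fibroblast sum of 499 FPKM, not far below that of WT_CAF 1. In KO_CAF 2 the collagen genes Col1a1 and Col1a2 are listed at 0 while Dcn, another fibroblast marker, is at 5871 FPKM, so a 0 in this table need not mean that a gene was silent, and genes are called listed at 0 below. Libraries also differ in the form of the sequencing index given in their description labels. NPF 1 to 3 and WT_CAF 1 and 2 carry none, WT_CAF 4 and 5, KO_CAF 3, WT_tumor 1 and KO_tumor 2 carry 16 bases, and the rest carry 6. The comparisons were therefore fitted with this form as a term, and what that does is said where it changes a sign or a call.

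H2-Ab1, which encodes the beta chain of the I-A molecule, was the member with the widest spread. Its level was 0.781, 4.68 and 5.51 FPKM in NPF, 0.426, 15.7, 84.0, 44.9 and 42.9 FPKM in WT_CAF, and 73.8, 5.35 and 15.9 FPKM in KO_CAF. In tumor cells it was 4.25, 0.982, 6.13 and 2.73 FPKM in WT_tumor and 4.45, 4.69 and 3.96 FPKM in KO_tumor. WT_CAF 2 to 5 thus lay above all NPF and all tumor cell libraries, WT_CAF 1 lay below every other library, and KO_CAF 2 lay inside the range of WT_tumor. How common such an order is among all genes was not counted.

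H2-Aa, the alpha chain that pairs with it, measured 1.32, 1.28 and 3.31 FPKM in NPF. It measured 0.402, 10.3, 30.3, 24.2 and 8.83 FPKM in WT_CAF, and 13.9, 4.21 and 8.50 FPKM in KO_CAF. Tumor cells had 2.18, 0.839, 4.57 and 2.58 FPKM (WT_tumor) and 2.47, 2.24 and 3.61 FPKM (KO_tumor). The order of libraries was much like that of H2-Ab1: Pearson's r of log2(FPKM + 1) between the chains was 0.945 over the 18 libraries, a description only, since the libraries fall into groups.

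H2-Eb1, the beta chain of the I-E molecule, measured 0.786, 1.05 and 2.58 FPKM in NPF. WT_CAF had 0.0921, 8.35, 16.3, 10.4 and 5.93 FPKM. KO_CAF had 8.73, 2.60 and 4.30 FPKM, WT_tumor had 0.785, 0.344, 1.19 and 1.12 FPKM, and KO_tumor had 1.51, 0.815 and 1.66 FPKM. Its usual partner is encoded by H2-Ea, which the table lists under the pseudogene symbol H2-Ea-ps at 0 in every library. The C57BL/6 background lacks a functional H2-Ea; the labels name no strain for these mice.

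Cd74, the invariant chain, was the most abundant member on the FPKM scale in 12 of 18 libraries. It stood at 1.04, 2.76 and 7.67 FPKM in NPF, at 0.647, 26.0, 64.2, 79.0 and 23.8 FPKM in WT_CAF, and at 40.8, 7.99 and 33.4 FPKM in KO_CAF. WT_tumor had 9.59, 1.84, 10.1 and 5.13 FPKM and KO_tumor 9.16, 12.2 and 8.85 FPKM. Here KO_CAF 2 lay inside the range of the tumor cells. Within the set the proportion of chain to invariant chain varied less than Cd74 itself, which ranged from 0.647 to 79.0 FPKM. Over all libraries H2-Aa per Cd74 ranged from 0.183 to 1.26 and H2-Ab1 per Cd74 from 0.383 to 1.81. H2-Eb1 per Cd74 was less even, from 0.0667 to 0.753.

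**Figure D1:**
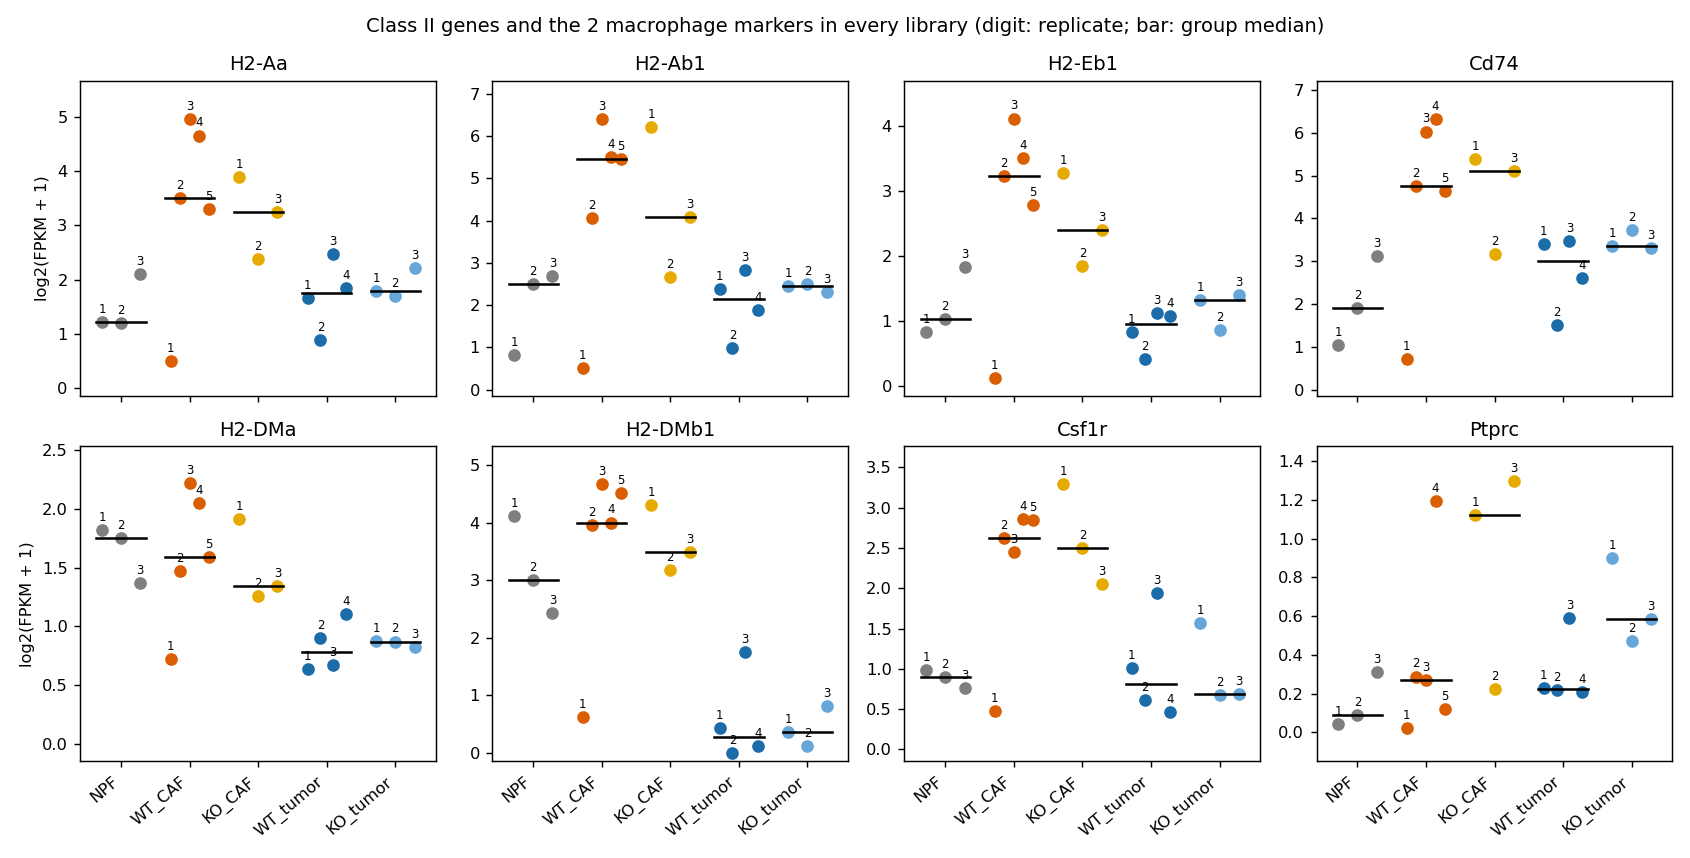
Level of the 6 members with at least 1 FPKM in at least 3 libraries, and of Csf1r and Ptprc, as log2(FPKM + 1) on the vertical axis for each of 18 libraries by group; digits give the replicate and bars the group median. WT_CAF 1 is the lowest WT_CAF point in every panel, and H2-DMb1 separates fibroblasts from tumor cells apart from that library. The share of all genes that do so was not counted.

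Of the peptide exchange genes, H2-DMb1, the beta chain of H2-DM, had 16.4, 7.03 and 4.39 FPKM in NPF, so already present in normal fibroblasts. It was at 0.538, 14.6, 24.6, 15.1 and 22.0 FPKM in WT_CAF and at 18.9, 8.09 and 10.3 FPKM in KO_CAF. Tumor cells were far lower, with 0.353, 0, 2.39 and 0.0817 FPKM in WT_tumor and 0.288, 0.0852 and 0.766 FPKM in KO_tumor. With WT_CAF 1 set aside, every fibroblast library lay above every tumor cell library. How many of all genes separate the libraries in this way was not counted, so it is a description only. WT_tumor 3, the tumor cell library with the most H2-DMb1, also had the highest fibroblast marker sum of the tumor cells, 499 FPKM against 10.6 to 116 FPKM in the others; its part in the value was not tested. NPF 1 had the second lowest Cd74 of all libraries and more H2-DMb1 than NPF 2 or 3, so that H2-DMb1 per Cd74 was 15.7 there, against 0.191 in WT_CAF 4; in WT_tumor 2 H2-DMb1 is listed at 0, a value that enters the fits below.

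**Figure D2:**
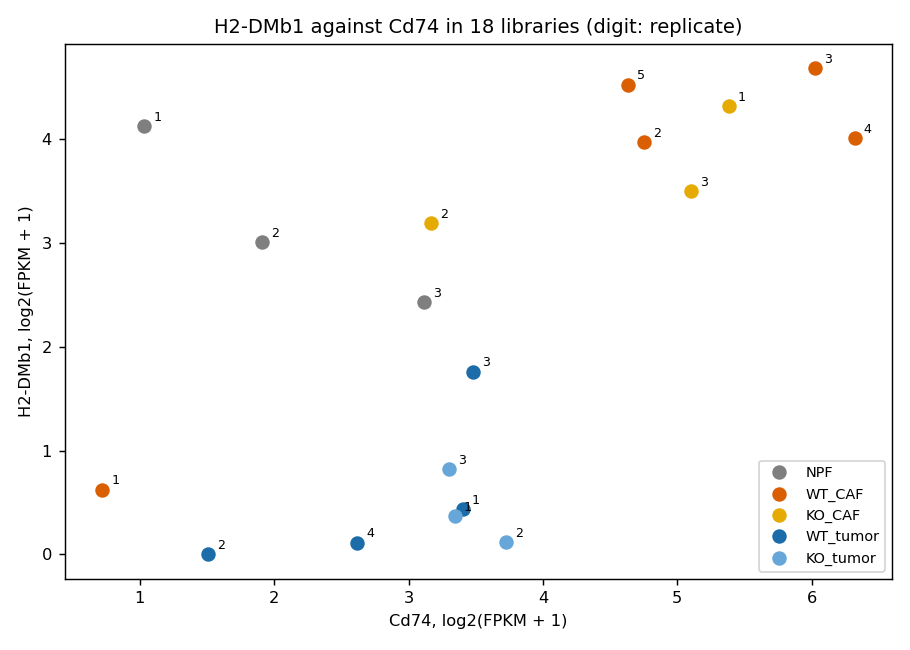
H2-DMb1 (vertical axis) against Cd74 (horizontal axis), both as log2(FPKM + 1), 1 point per library with its replicate digit. The ranges of Cd74 overlap between NPF (1.04 to 7.67 FPKM) and the tumor cell libraries (1.84 to 12.2 FPKM), while the NPF points lie at 4.39 to 16.4 FPKM of H2-DMb1 and the tumor cell points at 0 to 2.39 FPKM.

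H2-DMa, the alpha chain of H2-DM, varied least. The values were 2.53, 2.36 and 1.58 FPKM in NPF, 0.647, 1.77, 3.66, 3.15 and 2.01 FPKM in WT_CAF and 2.76, 1.39 and 1.54 FPKM in KO_CAF. It was at 0.554, 0.865, 0.590 and 1.15 FPKM in WT_tumor and 0.830, 0.829 and 0.774 FPKM in KO_tumor. NPF was the group with the highest median, 2.36 FPKM, although its range overlapped those of both CAF groups; on the TPM scale (each library scaled to the same total) the order was WT_CAF, KO_CAF and NPF, with medians of 4.61, 3.34 and 3.04.

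H2-DMb2, a near copy of H2-DMb1, was at most 0.645 FPKM, and was listed at 0 in all NPF libraries and in 3 of 4 WT_tumor libraries. Transcripts of the pair in the reference annotation were 96.0% identical over 1045 aligned bases, and 26.6% of the 50-base windows of H2-DMb1 occur in H2-DMb2, so the split of reads between them is uncertain. H2-Oa was listed at 0 in all 7 tumor cell libraries and reached 0.471 FPKM in WT_CAF 4, its highest library. H2-Ob, its partner, was at most 0.147 FPKM, in KO_tumor 3.

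Ciita, the transactivator, was low everywhere. Its median was 0.00684 FPKM in NPF, 0.0802 FPKM in WT_CAF, 0.125 FPKM in KO_CAF, 0.0301 FPKM in WT_tumor and 0.0137 FPKM in KO_tumor, with a highest value of 0.196 FPKM in WT_CAF 4. The KO_CAF libraries, at 0.125, 0.0761 and 0.138 FPKM, lay above all NPF and tumor cell libraries, an order whose share over all genes was not counted. Without read counts in the table, the error of such small values is unknown. Ciita, H2-DMb2, H2-Oa and H2-Ob did not reach 1 FPKM in any library and were not tested.

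In the order of group medians, WT_CAF came first for H2-Aa, H2-Ab1, H2-Eb1 and H2-DMb1, with KO_CAF next, and KO_CAF came first for Cd74 with WT_CAF next. The ranges of WT_CAF and KO_CAF overlapped for each of these genes. KO_tumor, the next group down for H2-Aa and H2-Eb1, did not overlap with KO_CAF for either gene. NPF, WT_tumor and KO_tumor overlapped with each other for H2-Aa, H2-Ab1 and H2-Eb1, whereas for Cd74 all KO_tumor libraries lay above all NPF libraries. For H2-DMb1, NPF did not overlap with KO_tumor, the next group down. Of all genes tested, 21.3% lay lower in every KO_tumor library than in every KO_CAF library. For KO_tumor and NPF such a share was not counted, so these separations are a description only.

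The first comparison asks whether fibroblasts of the tumor differ from those of the normal pancreas. Of the 6 members tested, none was called by limma at an adjusted p under 0.05, where 0.95% of all 13369 genes tested were called; no member had an unadjusted p under 0.05, against 2254 of all genes. The fitted log2 difference of WT_CAF minus NPF was 0.72 ± 1.02 (SE; limma adjusted p = 0.77) for Cd74, 0.49 ± 0.75 (adjusted p = 0.79) for H2-Aa, 0.44 ± 0.68 (adjusted p = 0.79) for H2-Eb1 and 0.27 ± 1.03 (adjusted p = 0.93) for H2-Ab1. H2-DMa, at -0.55 ± 0.29, and H2-DMb1, at -0.89 ± 0.79, pointed the other way. The median over the members was 0.36, beside -0.01 over all genes.

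That fit compares NPF only with WT_CAF 1 and 2, the WT_CAF libraries with the same index form, so WT_CAF 1 decides its size. WT_CAF 2 to 5, with a median Cd74 of 45.1 FPKM and a median H2-Ab1 of 43.9 FPKM, lay above all 3 NPF libraries for Cd74, H2-Aa, H2-Ab1 and H2-Eb1. The share of all genes with such a separation was not counted, so for these 4 genes it is a description only. When WT_CAF 1 was left out and the index form was not a term, an alternative chosen after seeing the data, those 4 genes were called higher in WT_CAF. The log2 differences were then 3.42 for Cd74 (limma adjusted p = 0.0044), 3.35 for H2-Ab1 (adjusted p = 0.012), 2.60 for H2-Aa (adjusted p = 0.0038) and 2.17 for H2-Eb1 (adjusted p = 0.0025), in a fit that called 518 genes higher and 392 lower. Over all settings tried, the adjusted p of Cd74 ran from 0.0044 to 0.99. When WT_CAF 2 was left out instead, all 4 differences changed sign, to between -1.02 and -1.50, and H2-DMb1 was called lower (-2.56, adjusted p = 0.035).

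**Figure D3:**
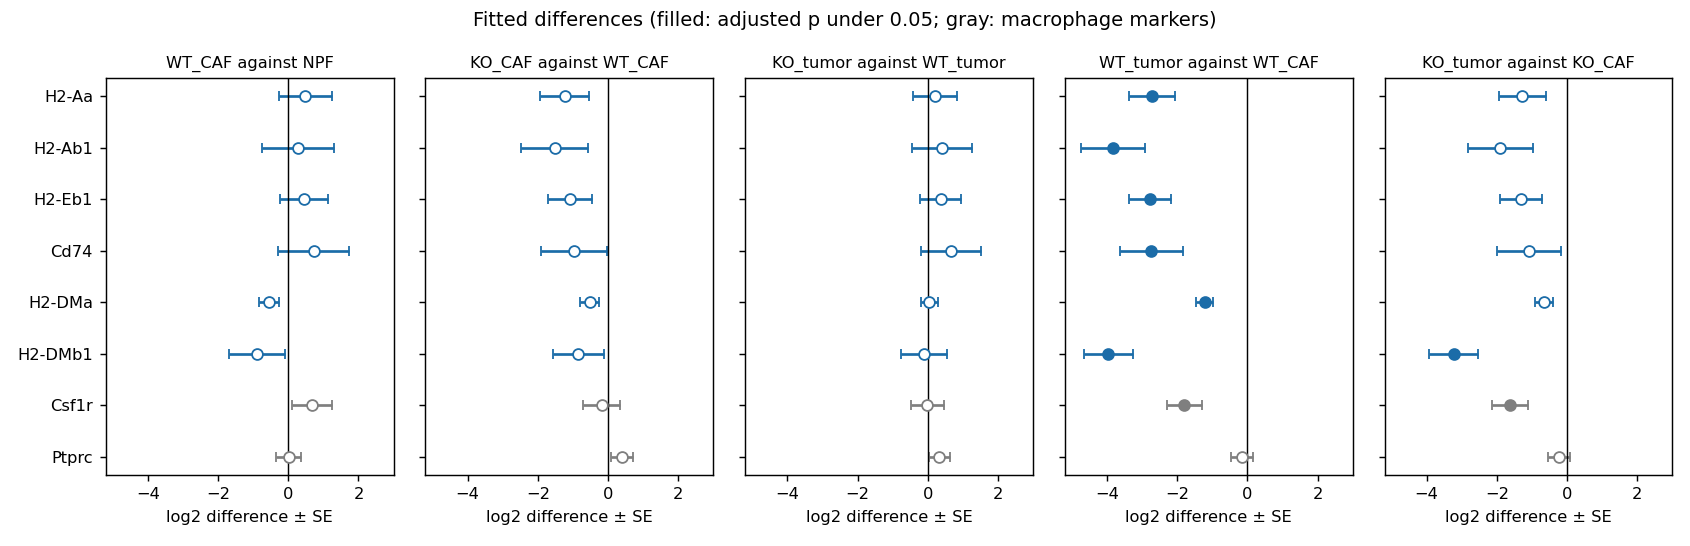
Fitted log2 difference with its standard error (horizontal axis) for the 6 members tested and for Csf1r and Ptprc (vertical axis) in each of the 5 comparisons, from 1 limma fit of 18 libraries; filled points have an adjusted p under 0.05. All 6 members are called in WT_tumor against WT_CAF, and H2-DMb1 alone in KO_tumor against KO_CAF.

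The second comparison asks what the loss of Saa3 does in the fibroblasts. No member was called in KO_CAF against WT_CAF, where 0.00748% of all genes, 1 gene, were called; no member and 125 of all genes had an unadjusted p under 0.05. All 6 fitted differences were below 0: -1.52 ± 0.94 for H2-Ab1, -1.23 ± 0.69 for H2-Aa, -1.10 ± 0.63 for H2-Eb1, -0.97 ± 0.94 for Cd74, -0.85 ± 0.72 for H2-DMb1 and -0.52 ± 0.26 for H2-DMa, each with a limma adjusted p of 1. Their median was -1.03, beside -0.01 over all genes. With the index form in the fit these sizes rest on WT_CAF 3 to 5. Among libraries with an index of 6 bases the difference was -1.96 for H2-Ab1 and -1.75 for Cd74, and among those with 16 bases it was -1.41 and -0.37. Without the index form the differences were smaller: -0.067 for H2-Ab1, -0.21 for H2-Aa, -0.24 for H2-Eb1 and -0.11 for H2-DMa, with Cd74 and H2-DMb1 turned to 0.061 and 0.11. Their median was then -0.086.

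The third asks the same of the tumor cells. Again no member was called in KO_tumor against WT_tumor, and of all genes 0% were called, although 528 had an unadjusted p under 0.05, none of them a member. Cd74 differed by 0.67 ± 0.86, H2-Ab1 by 0.41 ± 0.86, H2-Eb1 by 0.37 ± 0.57, H2-Aa by 0.21 ± 0.63, H2-DMa by 0.05 ± 0.24 and H2-DMb1 by -0.12 ± 0.66, all with a limma adjusted p of 1. KO_tumor libraries were close together, with H2-Ab1 at 4.37 ± 0.373 FPKM (SD, n = 3), inside the range of WT_tumor.

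The difference between these knockout effects, tumor cells minus fibroblasts, was above 0 for all 6 members, with a median of 1.45 beside -0.01 over all genes. H2-Ab1 had the largest, 1.93 ± 1.29, and none was called (limma adjusted p of 1; of all genes 0% were called, and 185 genes but no member had an unadjusted p under 0.05). Of WT_CAF, only libraries 3 to 5 bear on these sizes with the index form in the fit. Without the index form H2-Ab1 was at 0.46, H2-DMb1 turned to -0.25 and the median was 0.42. With standard errors of up to 0.94 in the knockout comparisons, an adjusted p of 1 does not show that the levels were equal.

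The last comparisons set tumor cells against fibroblasts of the same Saa3 genotype. All 6 members tested were called lower in WT_tumor than in WT_CAF, where 12.5% of all genes were called lower. H2-DMb1 differed most, by -3.96 ± 0.69 (SE; limma adjusted p = 0.0018), a 15.6-fold lower level on the FPKM + 1 scale. H2-Ab1 fell by 3.83 ± 0.90 (adjusted p = 0.0091), H2-Eb1 by 2.77 ± 0.60 (adjusted p = 0.0058) and Cd74 by 2.74 ± 0.90 (adjusted p = 0.043). H2-Aa fell by 2.72 ± 0.66 (adjusted p = 0.011) and H2-DMa by 1.22 ± 0.25 (adjusted p = 0.0046). The members' median was -2.76, beside 0.07 over all genes. With the index form in the fit these sizes rest on WT_CAF 3 to 5, because no tumor cell library lacks an index. Leaving out WT_CAF 1 or WT_CAF 2 therefore changes the spread in that fit but not the sizes, and is no check of them.

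No member separated the libraries of these groups without overlap, because of WT_CAF 1, while 7.01% of all genes lay lower in every WT_tumor library. With WT_CAF 1 left out and no index form in the fit, all 6 were called lower, from -1.01 for H2-DMa to -3.71 for H2-DMb1. Within the libraries with a 6-base index the difference was -4.50 for H2-Ab1 and -3.49 for Cd74, and within those with 16 bases it was -3.10 and -2.07. Some calls changed with the index term or with 1 library. With WT_CAF 1 kept and no index form in the fit, 3 of 6 were called (H2-DMb1, H2-DMa and H2-Eb1), and in a fit of these groups alone only H2-DMb1. Without WT_CAF 3 only H2-DMb1 and H2-DMa were called, and the call of Cd74 was also lost without WT_CAF 4 (adjusted p = 0.11), without WT_tumor 1, 2 or 4 (adjusted p = 0.088, 0.086 and 0.063) and under 7 further settings.

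In KO_tumor against KO_CAF, H2-DMb1 was the 1 member called, by -3.23 ± 0.70 (limma adjusted p = 0.0048), where 15.4% of all genes were called lower. H2-Ab1, at -1.90 ± 0.92 (adjusted p = 0.13), H2-Eb1, at -1.31 ± 0.61 (adjusted p = 0.12), H2-Aa, at -1.28 ± 0.67 (adjusted p = 0.17), H2-DMa, at -0.65 ± 0.26 (adjusted p = 0.073), and Cd74, at -1.10 ± 0.91 (adjusted p = 0.38), were not. For 5 of 6 members every KO_tumor library lay below every KO_CAF library, as for 21.3% of all genes; the exception was Cd74, whose KO_CAF 2 value of 7.99 FPKM lay below all 3 KO_tumor values. H2-DMb1 was called in both tumor cell comparisons and under every library left out of either.

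**Figure D4:**
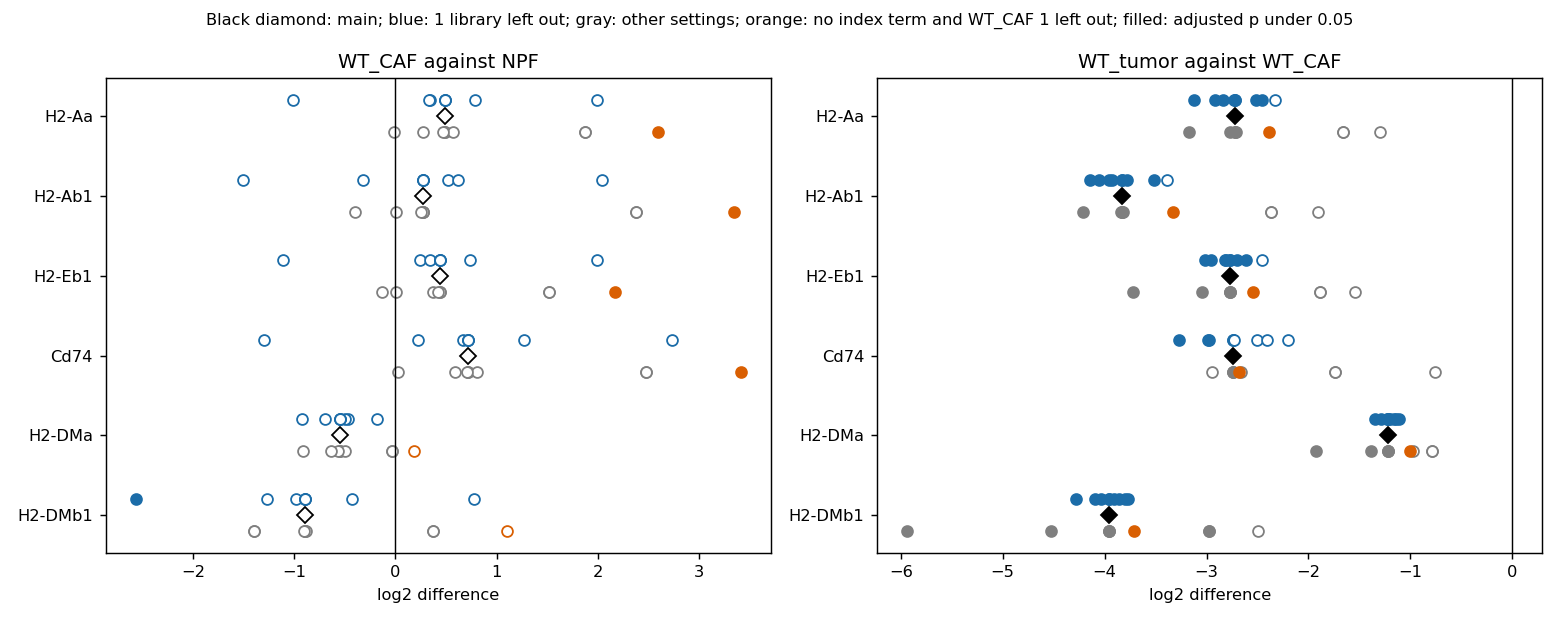
Log2 difference (horizontal axis) of each member (vertical axis) under every setting tried, for WT_CAF minus NPF on the left and WT_tumor minus WT_CAF on the right; black diamonds are the values reported first, and filled symbols have an adjusted p under 0.05. On the left the values of Cd74 run from -1.30 to 3.42, and on the right all 6 members stay below 0 under every setting.

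Macrophages express class II genes, so Csf1r, which encodes the receptor for colony stimulating factor 1, and Ptprc were read in the same libraries. Csf1r measured 0.978, 0.865 and 0.697 FPKM in NPF, 0.394, 5.19, 4.46, 6.25 and 6.20 FPKM in WT_CAF and 8.85, 4.66 and 3.13 FPKM in KO_CAF. It was at 1.01, 0.524, 2.85 and 0.375 FPKM in WT_tumor and 1.96, 0.602 and 0.610 FPKM in KO_tumor. Like H2-Aa, H2-Ab1 and H2-Eb1, Csf1r had its highest median in WT_CAF and the next in KO_CAF. It was called lower in WT_tumor than in WT_CAF (-1.80 ± 0.50, limma adjusted p = 0.021) and in KO_tumor than in KO_CAF (-1.64 ± 0.51, adjusted p = 0.029). The call in WT_tumor was lost without WT_CAF 3, 4 or 5 or WT_tumor 1 (adjusted p = 0.052, 0.060, 0.054 and 0.054), without the index term (adjusted p = 0.062) and with only the groups compared (adjusted p = 0.15). That in KO_tumor was lost without KO_CAF 1 or 2 or KO_tumor 2 or 3 (adjusted p = 0.10, 0.062, 0.095 and 0.091) and with no filter on low values (adjusted p = 0.051).

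Ptprc was lower and ordered in another way. Its levels were 0.0290, 0.0626 and 0.240 FPKM in NPF, 0.0159, 0.221, 0.204, 1.29 and 0.0869 FPKM in WT_CAF and 1.18, 0.167 and 1.45 FPKM in KO_CAF. It was at 0.172, 0.163, 0.506 and 0.155 FPKM in WT_tumor and 0.867, 0.384 and 0.498 FPKM in KO_tumor. Its differences between groups were between -0.23 and 0.40 and none was called.

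The markers and the class II genes moved together in some libraries and apart in others. WT_CAF 1 was lowest for H2-Ab1 and Ptprc alike, and KO_CAF 1 was high for H2-Ab1, Csf1r and Ptprc alike. By contrast, H2-Ab1 per Ptprc was 494 in WT_CAF 5 and 411 in WT_CAF 3 but 5.14 in KO_tumor 1, a 96.1-fold spread over the 18 libraries. H2-Ab1 per Csf1r spread less, 23.6-fold, from 0.798 in NPF 1 to 18.9 in WT_CAF 3. Cd74 per Csf1r ran from 1.07 in NPF 1 to 20.3 in KO_tumor 2. H2-Aa per Csf1r spread least of these, 7.60-fold, from 0.903 in KO_CAF 2 to 6.87 in WT_tumor 4. The spread of H2-Aa per Cd74, within the set, was 6.90-fold and thus close to that of H2-Aa per Csf1r. Csf1r per Ptprc was itself uneven, from 1.23 in KO_tumor 3 to 71.4 in WT_CAF 5, so the 2 markers do not stand in 1 ratio. Small Ptprc values carry an unknown error, which these ratios inherit.

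**Figure D5:**
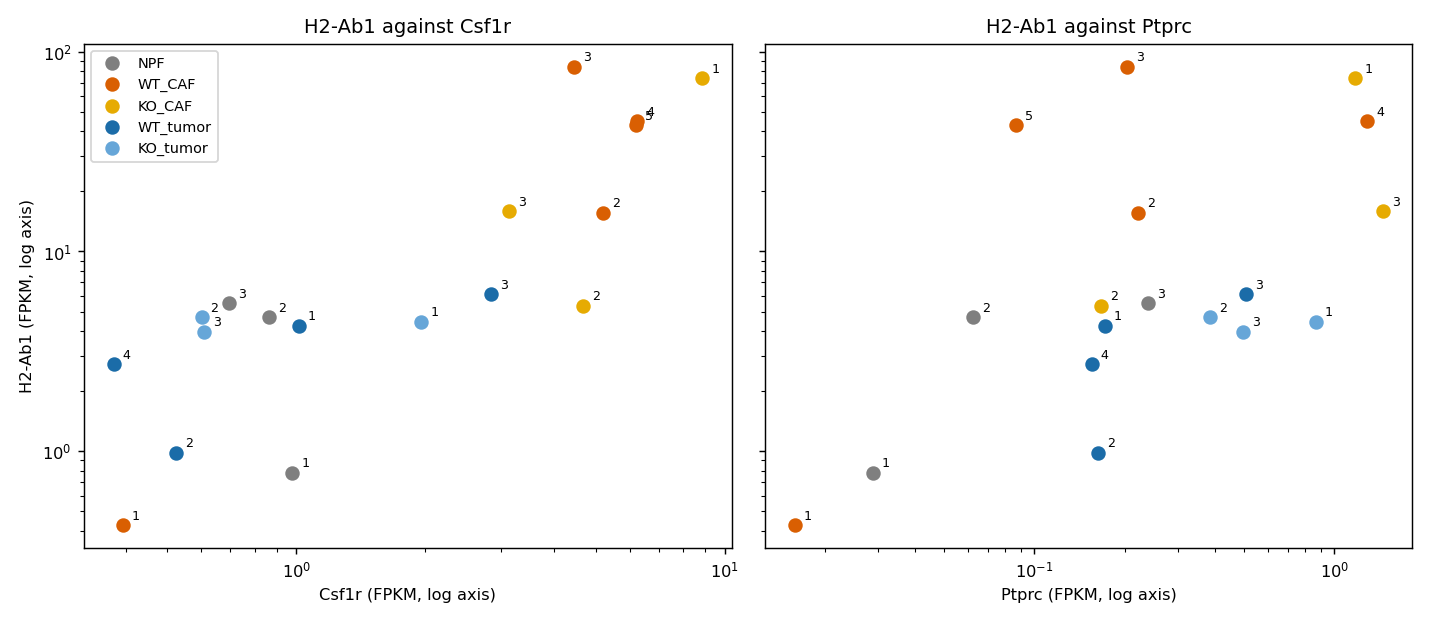
H2-Ab1 (vertical axis) against Csf1r on the left and Ptprc on the right (horizontal axes), all in FPKM on log axes, 1 point per library with its replicate digit. Libraries with Csf1r above 3 FPKM include all those with H2-Ab1 above 10 FPKM, whereas WT_CAF 3 and 5 have high H2-Ab1 at a Ptprc of 0.204 and 0.0869 FPKM.

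Over a list of 20 myeloid markers the summed level was 32.6 to 167 FPKM in NPF, 95.8 to 235 FPKM in WT_CAF, 42.2 to 328 FPKM in KO_CAF, 52.0 to 255 FPKM in WT_tumor and 73.3 to 253 FPKM in KO_tumor. Of the 20 genes, 4 to 6 reached 1 FPKM in NPF, 4 in WT_CAF 1, 12 to 16 in WT_CAF 2 to 5, 10 to 17 in KO_CAF and 6 to 14 in the tumor cells. Tyrobp, a signalling adaptor of myeloid cells, was at 13.4 FPKM in KO_tumor 1 and 10.8 FPKM in WT_tumor 3, where H2-Ab1 was at 4.45 and 6.13 FPKM. It was at 4.22 FPKM in WT_CAF 5 and 8.60 FPKM in WT_CAF 3, where H2-Ab1 was at 42.9 and 84.0 FPKM. Csf1r had the reverse order, at 1.96 and 2.85 FPKM in those tumor cell libraries and 6.20 and 4.46 FPKM in those WT_CAF libraries. C1qb gave no clear order (3.33 and 2.97 FPKM against 3.18 and 4.52 FPKM). Cd14 went the way of Tyrobp, at 137 and 170 FPKM against 18.7 and 36.4 FPKM. It made up most of the myeloid sum in KO_tumor 1, WT_tumor 3 and KO_tumor 3 (124 FPKM in the last). In NPF 1 most of the sum was Lyz2 (92.3 FPKM) and Cd53 (63.9 FPKM), and in WT_CAF 1 it was Cd14 (91.9 FPKM) and Cd53 (56.8 FPKM). Lyz2 was also the largest part in WT_CAF 4, at 127 FPKM. A high sum can thus rest on few genes and need not follow the rest of the list.

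Markers of B cells and dendritic cells, the other presenting cells looked at, were low. The summed level of 8 B cell markers was at most 1.69 FPKM in any library, with Pax5 at 0 in all NPF, WT_CAF and WT_tumor libraries, and that of 9 dendritic cell markers was at most 9.03 FPKM. T cell markers, read as a sign of other leukocytes, were higher in some libraries. The 7 genes summed to 12.9 FPKM in KO_CAF 3, where 5 reached 1 FPKM, and to 6.04 FPKM in WT_CAF 4, where 4 did. With the mean of log2(FPKM + 1) of Csf1r and Ptprc as a term in the fit, no member was called in any comparison: in WT_tumor against WT_CAF the difference became -2.50 for H2-DMb1 (limma adjusted p = 0.063), -1.91 for H2-Ab1 (adjusted p = 0.25) and -0.75 for Cd74 (adjusted p = 0.66). The same fit called 424 genes in WT_tumor against WT_CAF, against 2880 without the term, so most calls of other genes were lost too. In these bulk libraries a smaller share of cells with class II RNA and less class II RNA per cell cannot be told apart, and the part of carried-over myeloid cells in the levels was not tested beyond these values.

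The genes whose levels ran most like H2-Ab1 over the 18 libraries were ranked by Pearson's r of log2(FPKM + 1) among 13363 genes, members left aside. Among the 15 highest were H2-Q7, a class I gene (r = 0.943), Nppc (0.910), Mdk, a heparin-binding growth factor (0.905), Glb1l2 (0.905), Lrrn4 (0.905), Wnt11 (0.901), Hdc, which makes histamine (0.897), Ptger3, a prostaglandin E receptor (0.890), Tnfrsf19 (0.877), Apln (0.874), Col24a1 (0.870), Ccl24 (0.866) and Wtip (0.863). Of the 20 myeloid markers, Emr1, Fcgr1, Cx3cr1 and Cybb did not pass the filter and could not be ranked. None of the others was among these 15: Csf1r had rank 32 (r = 0.854), C1qb, a complement gene of macrophages, rank 132 (0.788) and Ptprc rank 1815 (0.489). The members themselves had r = 0.942 for H2-Eb1, 0.932 for Cd74, 0.709 for H2-DMb1 and 0.672 for H2-DMa.

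Lrrn4 belongs to a list of mesothelial markers, genes of the cell layer that lines the body cavities. It was at 3.69, 5.74, 4.37 and 3.51 FPKM in WT_CAF 2 to 5, at 0 in WT_CAF 1, and at 3.74, 0.0764 and 2.98 FPKM in KO_CAF. KO_CAF 2, the KO_CAF library with the lowest H2-Ab1, had the lowest Lrrn4 and also the lowest Upk3b, another gene of that list, at 0.157 FPKM against 11.6 and 7.46 FPKM. Upk3b ranked 395 (r = 0.706), and Wt1, at 57.9 FPKM in KO_CAF 2, ranked 330 (r = 0.720). Msln, whose level was 98.1 to 460 FPKM in the tumor cells, ran the other way (r = -0.474).

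Within the 11 fibroblast libraries alone the most alike genes were Efhd2 (r = 0.976), Mdk (0.962), Wtip (0.955), Nkd1 (0.955), H2-Q7 (0.943), Tgm1 (0.942), Fcgr2b (0.936) and Lrrn4 (0.928), with Efna2, Glb1l2, Fndc4, Psmb8, Des and Mettl24 also among the 15, and 5 of the 15 were in the list over all libraries. Fcgr2b, which is not in the list of myeloid markers, encodes an inhibitory Fc receptor, and Psmb8 a subunit of the immunoproteasome. Csf1r ranked 113 (r = 0.852) and Ptprc 1762 (r = 0.550) there. Of the myeloid list, C1qc ranked 28 (r = 0.905), C1qb 29 (0.904), Tyrobp 60 (0.873) and Fcer1g 74 (0.867), all above Csf1r. The other myeloid markers tested, Ptprc among them, ranked from 116 (C1qa, r = 0.852) to 11295 (Cd53, r = -0.485).

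Other genes of the class II pathway were described from a list of 32, of which 27 were tested. None of the 7 transcription genes (Rfx5, Rfxap, Rfxank, Nfya, Nfyb, Nfyc and Creb1), which hold the promoter module that Ciita sits on, was called in any of the 5 comparisons. Rfx5 was between 1.11 and 3.52 FPKM in all 18 libraries. Neither knockout comparison called any of the 27 genes (limma adjusted p of 1).

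In WT_tumor against WT_CAF, 6 of 27 were called lower, where 12.5% of all genes were, and none higher. Among them were Socs1, an inhibitor of interferon gamma signalling (-2.41 ± 0.77, limma adjusted p = 0.040), the endosomal proteases Ctsb (-1.34 ± 0.25, adjusted p = 0.0028) and Lgmn (-2.43 ± 0.46, adjusted p = 0.0027), and Tmem176a and Tmem176b (-2.47 ± 0.51 and -1.99 ± 0.47). Ctsb, Lgmn, Tmem176a and Tmem176b were called with each library left out in turn, and Socs1 was lost without WT_CAF 3 or 4 or any 1 WT_tumor library (adjusted p = 0.058 to 0.26). In KO_tumor against KO_CAF, 7 of 27 were called lower, where 15.4% of all genes were, among them Socs1, the receptor subunit Ifngr2 (-1.12 ± 0.32, limma adjusted p = 0.020), Ctsb, Lgmn, Tmem176a and the costimulatory ligand Cd80 (-1.41 ± 0.38, adjusted p = 0.014). Of those named, Ctsb and Lgmn were called with each library left out in turn. The others were lost without KO_CAF 3 or KO_tumor 2, Tmem176a and Socs1 also without KO_CAF 2, and Tmem176a and Ifngr2 also without KO_tumor 1, with Tmem176a lost without KO_tumor 3 too (adjusted p = 0.052 to 0.13). With the Csf1r and Ptprc term none of the genes named here was called in either comparison. In WT_tumor against WT_CAF the adjusted p was then 0.062 for Ctsb, 0.090 for Lgmn, 0.13 for Tmem176a, 0.22 for Tmem176b and 0.40 for Socs1, and in KO_tumor against KO_CAF it was 0.073 for Ctsb, 0.12 for Lgmn and between 0.083 and 0.40 for the others. With only the groups compared, Tmem176b was lost in the former (adjusted p = 0.084) and Ctsb in the latter (adjusted p = 0.093).

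Cd80, which engages CD28 on T cells, was the 1 gene of the list called in WT_CAF against NPF, and it was lower (-2.24 ± 0.42, limma adjusted p = 0.023). NPF had 6.39, 8.52 and 6.88 FPKM and WT_CAF had 0.0394, 1.91, 1.29, 1.13 and 0.290 FPKM, so the groups did not overlap, and KO_CAF, at 1.02, 2.13 and 3.07 FPKM, lay below NPF too. How many of all genes do not overlap between these groups was not counted. The call was lost without NPF 1 or 2 (adjusted p = 0.051 and 0.094) and without WT_CAF 1, where the difference was -1.50 (adjusted p = 0.13), as well as with a pseudocount of 0.1 (adjusted p = 0.12) and on the TPM scale (adjusted p = 0.086). The chain genes and Cd80 therefore had opposite orders in NPF and WT_CAF 2 to 5. Ctss, the protease that trims the invariant chain, was at most 0.382 FPKM in NPF and 7.21 to 18.5 FPKM in WT_CAF 2 to 5, with 0.393 FPKM in WT_CAF 1, and was not called.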

How the data were processed

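The authors deposited 1 table of FPKM per gene and library, named by gene symbol. Per the submitters' processing notes, Cufflinks 2.2.1, Cuffnorm, TopHat2 2.0.10 and Bowtie 1.0.0 were among the tools, and the builds named are mm9, GRCh37 and hg19, with no role given to each. Reads and depth are not in the table; the FPKM sum was 396646 to 919859 per library, and no counting error can be given.

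Values were taken as log2(FPKM + 1). Genes with at least 1 FPKM in at least 3 libraries (13369, with 6 of the 10 members) were fitted with limma 3.58.1 in R 4.3.3 (empirical Bayes with trend), 1 fit of all 18 libraries with group and index form, Benjamini-Hochberg adjustment over all genes and a call at an adjusted p under 0.05. Fold changes on this scale understate the change of low genes. A member that passed only where it is high had to differ, so the counts describe the 6 tested members. The fit was tested on simulated data. Members, lists and tests were chosen with earlier results of these data known. The genes most like H2-Ab1 were named by the 15 highest Pearson's r. Motifs were searched with Python 3.11.15 in RefSeq windows of GRCm38.p6, another build than the files'. Alternatives were the pseudocount, the filter, the index term, the samples fitted, TPM scaling, median scaling, a Csf1r and Ptprc term and leaving out each library. Some items, 1 allele of the tumor mice among them, are not reported here.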

Additional observations from a re-analysis of the deposited data

Results flagged for a closer look

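In groups of 4 or 5 libraries, a library was picked out where its gap to the nearest other exceeded Dixon's critical value for the group's range. This was tested in 23 groups of values and met in 6. The critical value is set for about 1 in 20 among independent, normally spread values. These groups share libraries and some hold several zeros, so the count cannot be measured against that rate. The library labelled WT_CAF 1 stood below the other WT_CAF libraries for H2-DMb1 (0.538 FPKM) and for Csf1r (0.394 FPKM). WT_CAF 4 stood above its group for H2-Oa (0.471 FPKM) and for Ptprc (1.29 FPKM). WT_tumor 3 stood above its group for Ptprc (0.506 FPKM), and WT_tumor 1 for H2-DMb2 (0.0382 FPKM, the others being listed at 0).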

How the results depend on the processing

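No paired analysis was possible because the labels carry no replicate numbers that tie libraries of different groups. In WT_CAF against NPF the number of genes called was 127 with the settings reported. It was 249 with no filter, 228 with the filter at 0.1 FPKM, 307 without the index term, 76 with only those groups, 70 on the TPM scale and 910 without both the index term and WT_CAF 1, a setting that called 4 members. Leaving out 1 library gave 46 to 1324 genes and 0 to 1 members. The log2 difference changed sign for H2-Aa to -0.0087 with the Csf1r and Ptprc term, for H2-Ab1 to -0.40 with that term, and for H2-Eb1 to -0.13 with a pseudocount of 0.1. With 1 library left out it ran from -1.02 (without WT_CAF 2) to 1.99 (without WT_CAF 1) for H2-Aa, and from -1.50 to 2.04 for H2-Ab1 by the same libraries, with -0.32 without NPF 1. Likewise it ran from -1.11 to 1.99 for H2-Eb1 and from -1.30 to 2.74 for Cd74. H2-DMa turned to 0.19 without the index term and WT_CAF 1. H2-DMb1 turned to 0.37 without the index term, in all groups or only those compared, and to 1.11 without the term and WT_CAF 1; with 1 library left out it ran from -2.56 (without WT_CAF 2) to 0.78 (without WT_CAF 1).

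KO_CAF against WT_CAF had 1 gene called, 3 with only those groups, 4 without the index term and WT_CAF 1, and 1 to 2 with 1 library left out. Without the index term, in all groups or only those compared, Cd74 turned to 0.061 and H2-DMb1 to 0.11. KO_tumor against WT_tumor had 0 genes called, 5 with no filter, 1 with the filter at 0.1 FPKM and 0 to 1 with 1 library left out. H2-Aa turned there to -0.023 with the Csf1r and Ptprc term and ran from -0.097 (without WT_tumor 2) to 0.44 with 1 library left out. H2-DMa ran from -0.052 (without KO_tumor 2), with -0.023 without WT_tumor 3, to 0.12. H2-DMb1 turned to 0.11 with a pseudocount of 0.1 and ran from -0.34 to 0.25 (without WT_tumor 3). For the difference between the knockout effects, 1 gene was called without the index term, with or without WT_CAF 1, and 0 to 1 with 1 library left out; H2-DMb1 turned to -0.25 without the index term.

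WT_tumor against WT_CAF called 6 members with the settings reported, 3 without the index term, 1 with only those groups, 0 with the Csf1r and Ptprc term and 2 to 6 with 1 library left out. Genes called were 2880 with the settings reported, 1651 with only those groups, 424 with that term and 1194 to 3557 with 1 library left out. KO_tumor against KO_CAF called 1 member (3798 genes called), 0 with that term (1300 genes called) and 2 without the index term and WT_CAF 1. Leaving out 1 library gave 2201 to 3475 genes. With the Csf1r and Ptprc term H2-Aa turned to 0.082 and Cd74 to 0.80. The cause of these changes was not tested. The TPM scale moved the median of all genes to 0.21 in WT_CAF against NPF and to 0.24 in WT_tumor against WT_CAF, and changed no sign of a member. On it 5 members, against 4 in FPKM, had their highest median in WT_CAF; the added one is H2-DMa.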
